A study of Mus musculus with 10 samples.

Results

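Bone marrow stromal cells of the preparation named MSC I were set against those of the preparation named MSC IV, 2 arrays against 2 arrays of 10 in all. The arrays were chosen by their titles alone, so no measured value entered the choice. The series holds 5 preparations, MSC I to MSC V, of adherent stromal cells from the marrow of female mice of the inbred strain C57BL/6J, 6 to 8 weeks old. All were unmodified cells grown to passage 16 to 17 in MesenCult medium with its serum-type supplement and antibiotics, and total RNA was hybridised to whole-transcript arrays. MSC I and MSC IV shared genotype, sex, age range, passage range and medium, and differ in the labels by the name of the preparation alone. The sources do not say how many animals gave each preparation, and nothing says that the arrays of a preparation came from separate cultures. The p-values therefore reflect only how far arrays of a preparation differ, and that spread may be technical.

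Marrow stromal cells include progenitors that can become fat cells or bone-forming osteoblasts. The nuclear receptor PPAR gamma and the C/EBP factors drive fat cell formation, and Runx2 followed by osterix, encoded by Sp7, drives bone formation. In culture the programmes are known to counteract each other, and the same cells also supply blood stem cells in the marrow with growth factors and adhesion molecules. Runx2 and the bone matrix genes Spp1 and Bglap had no probe set with their symbol and were not analysed here.

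Expression was read as log2 levels of 19938 genes, 1 probe set per gene. Each gene's difference, MSC I minus MSC IV, was tested with limma on all 10 arrays, which share 1 estimate of the replicate spread, and p-values were adjusted by Benjamini-Hochberg over all genes. A gene was called higher or lower where its adjusted p was under 0.05 and its groups differed by 1 log2 or more, which is a fold of 2. The error printed with a difference is its standard error in that model. The 2 arrays of MSC I correlated with the 2 of MSC IV at r = 0.922 to 0.938 over genes, against 0.943 to 0.986 for the other pairs of preparations and 0.990 to 0.994 within preparations. MSC I with MSC IV also had the most called genes of the 10 pairs of preparations, 2155, against 189 to 1545 for the others. Array medians lay between 6.45 and 6.63 log2, and the median difference of all genes was -0.0321 log2. Of 54 markers of macrophages, endothelium, lymphocytes, granulocytes, red cells, skeletal muscle, epithelium and nerve, 51 lay below the median of the table, 6.55 log2, on all 4 arrays. The exceptions were the macrophage gene Cd68 and the muscle gene Acta1, neither of which was called, and the keratin gene Krt19, at 9.20 and 10.47 in MSC I, against 5.60 and 5.57 in MSC IV (difference 4.25 ± 0.68, adjusted p = 0.00473). A granulocyte or erythroid marker was called higher without MSC I replicate 2.

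The stromal identity of the cells was checked on the surface markers used to define them. Itgb1, the beta 1 integrin, lay at 12.60 and 12.60 in MSC I, against 12.47 and 12.32 in MSC IV. Cd44, the hyaluronan receptor, lay at 9.12 and 9.05 in MSC I, against 9.63 and 9.57 in MSC IV, and neither gene was called. Thy1 was low on all 4 arrays, at 5.67 and 5.64 in MSC I, against 5.63 and 5.62 in MSC IV. The blood cell marker Ptprc, which encodes CD45, was low throughout, at 5.11 and 5.20 in MSC I, against 5.22 and 5.18 in MSC IV. Of the 14 measured markers, 4 were higher in MSC I and 4 lower. Nt5e, the enzyme CD73, had levels of 5.77 and 6.07 in MSC I, against 10.75 and 11.66 in MSC IV (difference -5.29 ± 0.40, adjusted p = 0.000217). Eng, the TGF beta co-receptor endoglin, had 5.71 and 5.86 in MSC I, against 9.69 and 9.50 in MSC IV (difference -3.81 ± 0.0825, adjusted p = 1.27e-06). The membrane protein Cd200 had 6.30 and 5.19 in MSC I, against 10.14 and 11.60 in MSC IV (difference -5.12 ± 0.82, adjusted p = 0.00471). MSC I was below the table median for these last 3 markers and MSC IV far above it. The growth factor receptor Pdgfra went the other way, with 12.23 and 10.68 in MSC I, against 6.56 and 7.67 in MSC IV (difference 4.34 ± 0.63, adjusted p = 0.00326). So did the adhesion molecule Vcam1, with 11.11 and 10.77 in MSC I, against 7.03 and 6.46 in MSC IV (difference 4.19 ± 0.33, adjusted p = 0.000251). Without MSC IV replicate 2 the number of higher markers was 2. In RNA of whole cultures, fewer cells of a type and less RNA per cell cannot be told apart.

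Between the preparations, 1303 of 19938 genes (6.54%) were higher in MSC I and 852 (4.27%) lower. Among the 10303 genes whose mean over all arrays lay above the table median, the shares were 10.5% and 7.22%. The higher genes had a median difference of 1.89 log2, and 275 of them differed by at least 3 log2 and 53 by at least 5. The lower genes had a median of -1.48, with 117 at 3 log2 or beyond and 25 at 5 or beyond. For 475 of the higher and 288 of the lower genes the lower preparation lay under the table median. Summarised array values are compressed at low levels, so a difference there may understate the change. The compression was not measured here.

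**Figure D1:**
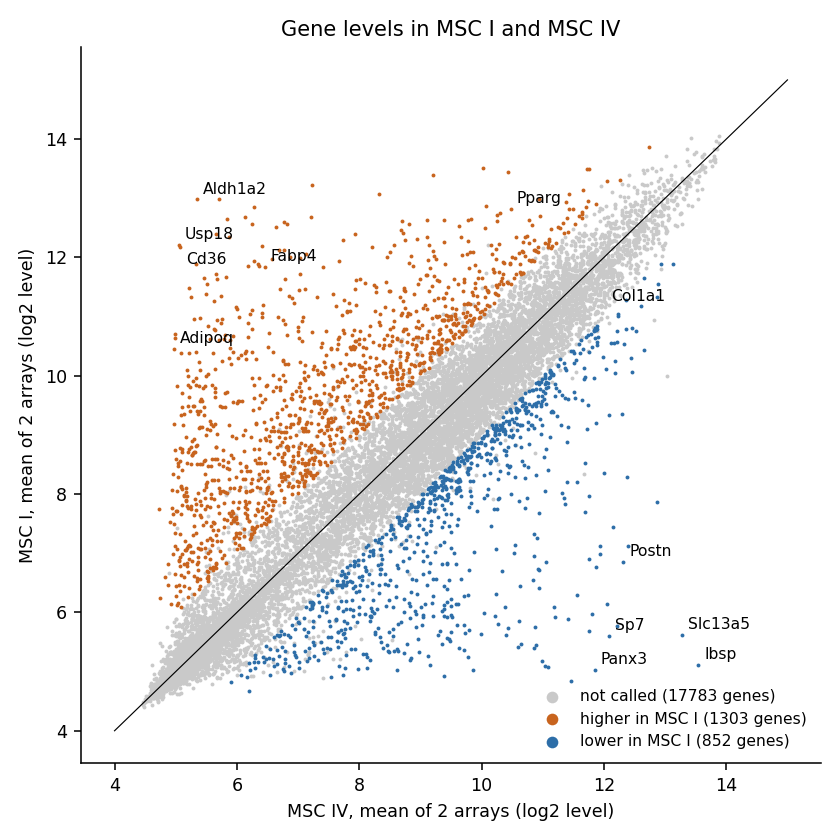
Mean log2 level in MSC I (vertical axis) against MSC IV (horizontal axis) for 19938 genes, 1 point per gene, each mean over 2 arrays. The 1303 genes higher in MSC I (orange) lie above the line of equal level and the 852 lower genes (blue) below it, with fat and interferon genes such as Cd36 and Usp18 at the upper left and bone genes such as Ibsp and Slc13a5 at the lower right.

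Among the 15 largest positive differences were genes of several kinds. Aldh1a2, which makes retinoic acid, had the largest, with levels of 12.55 and 13.41 in MSC I, against 5.17 and 5.52 in MSC IV (difference 7.63 ± 0.60, adjusted p = 0.000257). The matrix glycoprotein Efemp1 had 13.08 and 12.90 in MSC I, against 5.76 and 5.65 in MSC IV (difference 7.28 ± 0.53, adjusted p = 0.000188). Usp18, an interferon-induced protease that removes ISG15 from proteins, had 12.17 and 12.23 in MSC I, against 5.02 and 5.07 in MSC IV (difference 7.16 ± 0.14, adjusted p = 1.16e-06). In each of these genes the MSC I arrays lay at 12 log2 or above and the MSC IV arrays below 6, and the arrays of one preparation did not overlap those of the other. Trf, the iron carrier transferrin, differed by 6.55 ± 0.30, and the haemoglobin-binding protein haptoglobin, Hp, by 6.74 ± 0.56. Angpt2, a ligand of the endothelial receptor Tie2, differed by 6.58 ± 0.16, and the membrane dipeptidase Dpep1 by 6.26 ± 0.44. The rest of the 15 were Cd36, Serping1, Nid1, Cxcl10, Ifit3, Rarres2, Ifit1 and Oasl2, which appear with their groups below.

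Among the 15 largest negative differences, bone genes led. Ibsp, Slc13a5, Panx3, Sp7, Dlx5 and Postn belong to the bone lists and are described with them. Ostn, which encodes the secreted peptide osteocrin, made by osteoblasts and muscle, had levels of 4.22 and 5.47 in MSC I, against 10.93 and 11.99 in MSC IV (difference -6.62 ± 0.90, adjusted p = 0.00243). The receptor phosphatase Ptprz1 had 5.08 and 5.07 in MSC I, against 10.12 and 12.07 in MSC IV (difference -6.02 ± 0.62, adjusted p = 0.000849). Dpysl3, a regulator of the cytoskeleton best known in neurons, had 5.63 and 5.75 in MSC I, against 12.16 and 11.36 in MSC IV (difference -6.07 ± 0.26, adjusted p = 1.94e-05). The amino acid transporter Slc7a3 differed by -5.91 ± 0.99, the phosphoglucomutase-like adhesion protein Pgm5 by -5.84 ± 0.73, the glycosyltransferase B4galnt2 by -5.80 ± 0.90, the receptor Gpr141 by -5.94 ± 0.85 and the secreted carbonic anhydrase Car6 by -5.47 ± 0.88. The actin-binding protein Avil differed by -6.45 ± 1.31, and its call was lost on leaving out MSC I replicate 1 (adjusted p of 0.0691) or MSC IV replicate 2 (adjusted p of 0.073). Ostn, Ptprz1, Dpysl3, B4galnt2, Gpr141 and Car6 were below the table median on both MSC I arrays.

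**Figure D2:**
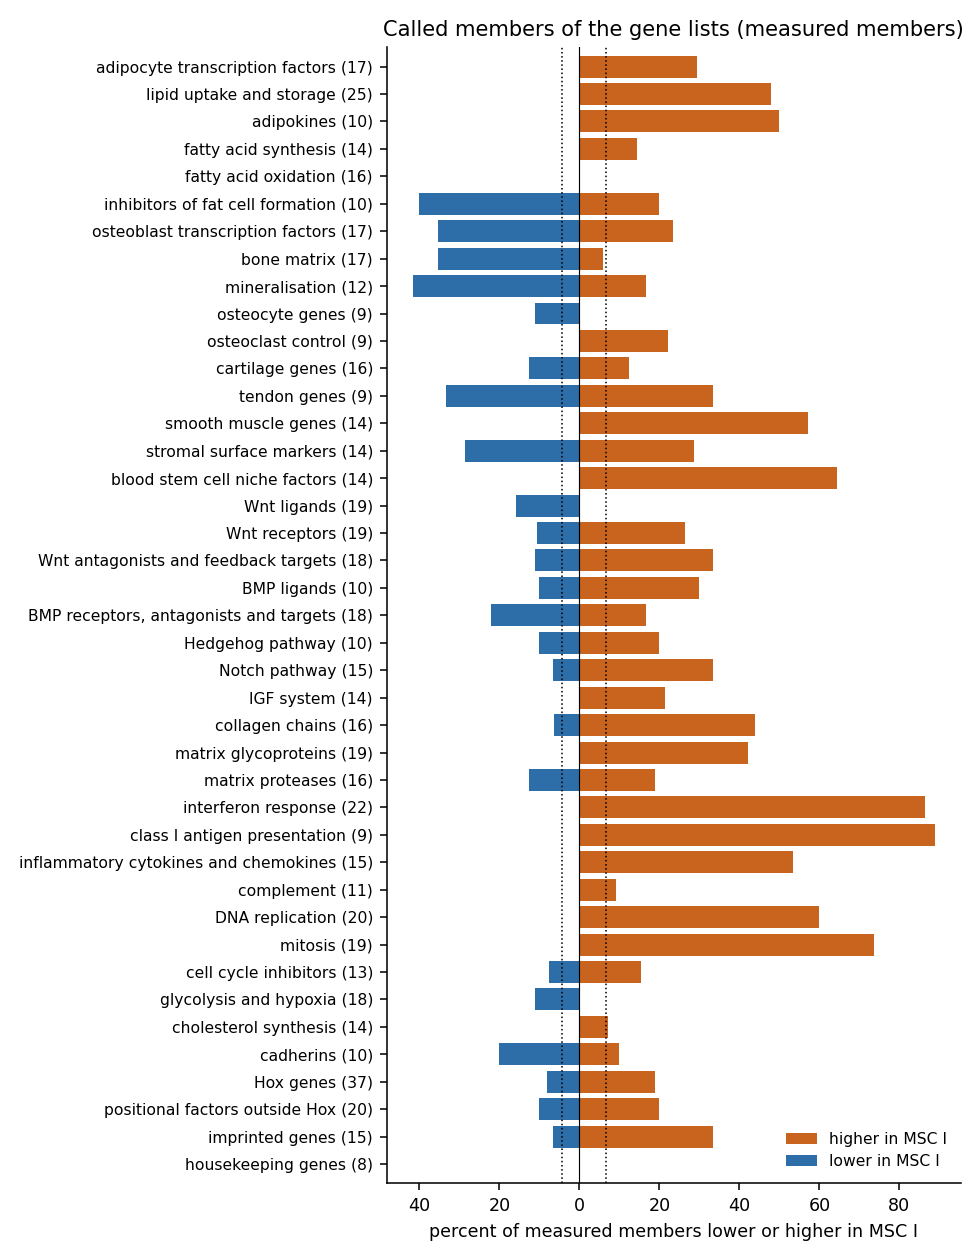
Percent of the measured members of each gene list that were called higher (right, orange) or lower (left, blue) in MSC I than in MSC IV, with the number of measured members in brackets and dotted lines at the shares of all genes, 6.54% higher and 4.27% lower. The interferon and class I lists reach 86.4% and 88.9% on the right, and the mineralisation list reaches 41.7% on the left. The lists were chosen with earlier results of these data known, which can favour high shares.

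The counts of called members given below for each list stand beside the shares of all genes, 6.54% higher and 4.27% lower. For lists with 0 genes lower in MSC I, the members lower at an unadjusted p under 0.05 were counted as well. They were 2 in the adipocyte transcription factors and the IGF system, and 1 in the adipokines, osteoclast control, smooth muscle, niche factor, glycoprotein, cytokine and complement lists. They were 0 in lipid storage, fatty acid synthesis, cholesterol synthesis, interferon response, class I presentation, DNA replication and mitosis. For lists with 0 genes higher, the members higher at that p were 1 in glycolysis and hypoxia and 0 in the osteocyte and Wnt ligand lists.

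The fat cell genes were higher in MSC I wherever they were called. Of 52 measured genes in the lists of adipocyte transcription factors, lipid uptake and storage, and adipokines, 22 were higher, 0 were lower and 30 were not called, with a median difference of 0.72 log2 beside -0.0321 for all genes. Over all genes 6.54% were higher and 4.27% lower. Of the 17 transcription factors 5 were higher, with a list median of 0.15. Pparg, which encodes PPAR gamma, had levels of 12.91 and 12.72 in MSC I, against 10.82 and 10.14 in MSC IV (difference 2.33 ± 0.28, adjusted p = 0.00145). It was thus well above the table median in MSC IV too. Cebpa, the C/EBP factor that keeps the fat cell programme active, had 10.81 and 10.002 in MSC I, against 5.89 and 5.99 in MSC IV (difference 4.46 ± 0.26, adjusted p = 7.62e-05). Nr1h3, the sterol-sensing receptor LXR alpha, had 9.15 and 9.22 in MSC I, against 5.70 and 5.60 in MSC IV (difference 3.54 ± 0.16, adjusted p = 3.03e-05). Cebpa and Nr1h3 were below the table median on the MSC IV arrays. Ebf1, a factor of both fat and B cell development, had 12.15 and 12.28 in MSC I, against 9.76 and 8.52 in MSC IV (difference 3.07 ± 0.38, adjusted p = 0.00179). The fat cell commitment factor Zfp423 was called at 1.19 ± 0.28, but not on leaving out MSC I replicate 1 (adjusted p of 0.078), MSC IV replicate 1 (adjusted p of 0.0872) or MSC IV replicate 2 (adjusted p of 0.0712). The early factors Cebpb (0.15 ± 0.30) and Cebpd (-0.47 ± 0.23) and the lipid synthesis regulator Srebf1 (0.0121 ± 0.21) were not called.

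The promoter of Cebpa, the listed adipocyte transcription factor with the largest difference, is shown from RefSeq (build GRCm38.p6). It covers the 250 bases before the start site at chr7:35119043-35119292 on the + strand, with the TATA box letters TATAAA in capitals, 30 to 25 bases before the start:
Cebpa: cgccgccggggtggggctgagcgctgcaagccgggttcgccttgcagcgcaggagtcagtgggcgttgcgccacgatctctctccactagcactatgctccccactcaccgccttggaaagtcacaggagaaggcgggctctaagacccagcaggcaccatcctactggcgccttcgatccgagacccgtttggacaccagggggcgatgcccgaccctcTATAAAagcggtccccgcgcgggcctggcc
On either strand these letters occurred in the 300-base window around the start of 13.6% of the 15614 genes with a promoter entry, of 19938, and in 11.3% of the higher and 10.2% of the lower genes. The paired PPAR element, AGGTCA, any base, AGGTCA, was present in 8 of the 15614 promoters (0.0512%) and in no promoter of the lipid or adipokine lists.

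Genes of lipid uptake and storage were called in 12 of 25 cases, all higher, with a list median of 1.06 log2. Cd36, the fatty acid receptor, had levels of 12.29 and 12.07 in MSC I, against 5.02 and 5.11 in MSC IV (difference 7.11 ± 0.0919, adjusted p = 2.42e-07), a fold of 139. Fabp4, the fatty acid carrier of mature fat cells, had 11.96 and 11.72 in MSC I, against 6.19 and 6.73 in MSC IV (difference 5.38 ± 0.50, adjusted p = 0.000566). Lpl, the lipase that frees fatty acids from lipoproteins, had 13.17 and 12.98 in MSC I, against 9.42 and 7.23 in MSC IV (difference 4.75 ± 0.92, adjusted p = 0.00976). The MSC IV arrays differed from each other by over 2 log2 for Lpl, and its call was lost on leaving out MSC I replicate 1 (adjusted p of 0.0504) or MSC IV replicate 2 (adjusted p of 0.051). Lipid droplet coat proteins followed. Plin1 had 9.19 and 7.82 in MSC I, against 5.27 and 5.53 in MSC IV (difference 3.10 ± 0.42, adjusted p = 0.00242). Plin4 differed by 4.59 ± 0.52, and the droplet fusion protein Cidec by 3.52 ± 0.14. Plin2, the droplet coat protein of most cell types, lay at 11.80 and 11.88 in MSC I, against 11.15 and 11.00 in MSC IV and was not called. The glycerol channel Aqp7 (3.40 ± 0.25), the glycerol phosphate enzyme Gpd1 (3.14 ± 0.30) and the triglyceride lipase Pnpla2 (1.52 ± 0.24) were higher. Genes typical of brown or liver-type fat storage, Cidea (4.69 and 4.73 in MSC I, against 4.80 and 4.85 in MSC IV) and Pnpla3 (5.55 and 5.66 in MSC I, against 5.26 and 5.46 in MSC IV), were below the table median on all 4 arrays.

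Of 10 measured adipokines, the secreted factors of fat cells, 5 were higher, with a list median of 2.08. Adipoq, adiponectin, had levels of 10.97 and 9.94 in MSC I, against 4.80 and 5.15 in MSC IV (difference 5.48 ± 0.32, adjusted p = 7.24e-05). Retn, resistin, had 10.88 and 8.69 in MSC I, against 5.42 and 5.49 in MSC IV (difference 4.33 ± 0.80, adjusted p = 0.00807). Rarres2, the chemoattractant chemerin, had 12.07 and 11.22 in MSC I, against 5.54 and 5.38 in MSC IV (difference 6.18 ± 0.34, adjusted p = 5.98e-05). On no array of MSC IV did these 3 genes exceed the table median. The retinol carrier Rbp4 differed by 5.88 ± 0.57 and angiotensinogen, Agt, by 3.92 ± 0.40. Leptin, Lep, lay at 4.92 and 4.99 in MSC I, against 4.91 and 4.97 in MSC IV and was not called. The peptide apelin, Apln, had 7.64 and 7.84 in MSC I, against 9.91 and 8.58 in MSC IV and missed the threshold (difference -1.51 ± 0.46, adjusted p = 0.0505), but was called lower without MSC IV replicate 2. It was also called lower under 3 filters on low values (at least 2 arrays above the table median, at least 2 above its 75th percentile of 9.22 log2, or a mean above the median). The same held with arrays centred on their medians, after further quantile normalisation, and with the trend and robust variance settings of eBayes.

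**Figure D3:**
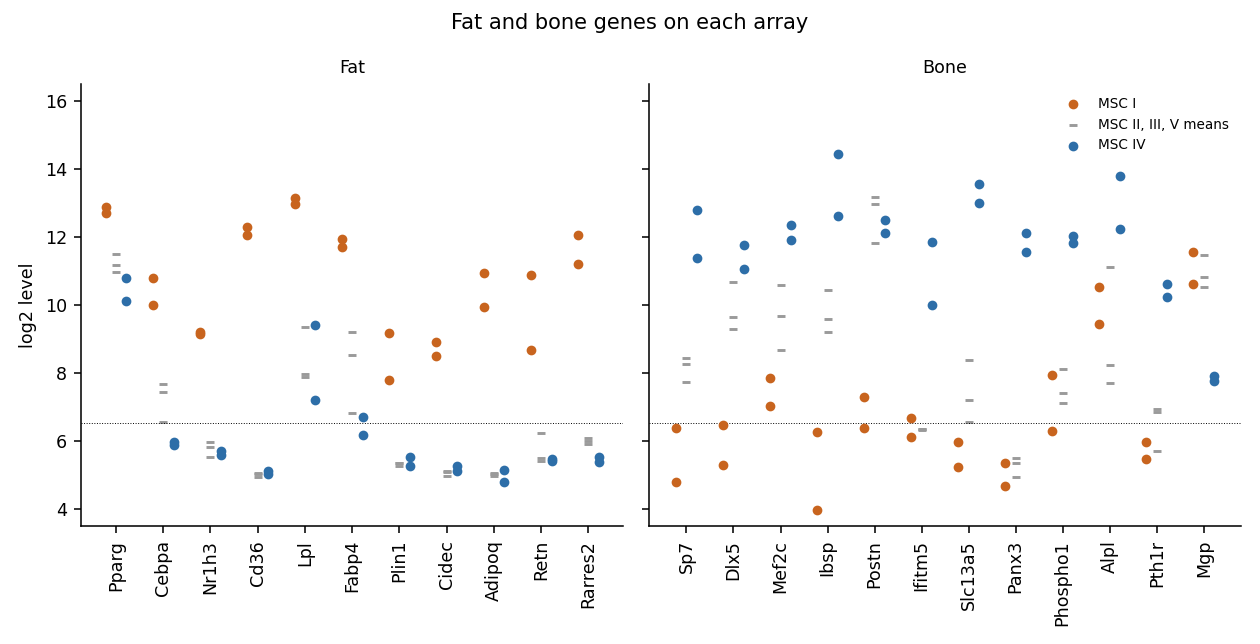
Log2 level of 11 fat genes (left) and 12 bone genes (right) on each array of MSC I (orange points) and MSC IV (blue points), with the means of MSC II, III and V as grey dashes and the table median of 6.55 as a dotted line. The genes were picked from the lists and do not stand for the lists as a whole. The 11 fat genes shown lie higher in MSC I. Of the 12 bone genes shown, 11 lie higher in MSC IV, Mgp being the other, and Alpl was not called. In the full lists, 22 of 52 measured fat genes were higher and 30 not called. Of 46 measured bone genes, 17 were lower, 7 higher and 22 not called.

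Of the genes that make fatty acids 14.3% were called higher, and of those that burn them 0%, beside 6.54% of all genes. Of 14 genes of fatty acid synthesis 2 were higher and 0 lower, with a list median of 0.52. These were the desaturase Scd1 (1.25 ± 0.25) and the elongase Elovl6 (1.45 ± 0.36). The call of Scd1 was lost on leaving out MSC I replicate 1 (difference 0.86) or MSC IV replicate 1 (adjusted p of 0.0593), and that of Elovl6 on leaving out MSC I replicate 1 (adjusted p of 0.123) or MSC IV replicate 2 (adjusted p of 0.128), so that the count was 0 without MSC I replicate 1 and 1 without either MSC IV array. Fasn, fatty acid synthase, lay at 11.66 and 11.28 in MSC I, against 10.83 and 10.59 in MSC IV, a difference under the minimum of 1 log2 (difference 0.76 ± 0.22, adjusted p = 0.0416). Of 16 genes of fatty acid oxidation limma called 0 (median 0.26), with 6 positive and 3 negative at an unadjusted p under 0.05, but 3 were called without MSC I replicate 2, 2 without MSC IV replicate 1 and 1 without MSC I replicate 1. Ucp1, the uncoupling protein of brown fat, lay at 4.93 and 4.92 in MSC I, against 4.87 and 4.97 in MSC IV. Of 14 cholesterol synthesis genes 1 was higher (7.14%, near the 6.54% of all genes), the epoxidase Sqle (1.14 ± 0.29). Sqle lost its call on leaving out MSC I replicate 1 (difference 0.84), MSC IV replicate 1 (difference 1.29) or MSC IV replicate 2 (difference 0.98). The count was 2 without MSC I replicate 2. Of 18 glycolysis and hypoxia genes 2 were lower. These were Slc2a3, a glucose transporter, at 6.499 and 6.53 in MSC I, against 7.89 and 7.87 in MSC IV (difference -1.36 ± 0.11, adjusted p = 0.000363), and Ndrg1, a stress-induced gene, at 6.74 and 7.22 in MSC I, against 11.83 and 12.04 in MSC IV (difference -4.95 ± 0.40, adjusted p = 0.000302).

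Inhibitors of fat cell formation were called in either direction. Of 10 measured, 4 were lower and 2 higher in MSC I (median -0.67). The higher count was 1 without MSC I replicate 2, and with at least 2 arrays above the 75th percentile of the table, 1 was higher and 1 lower. The ligand Wnt10b, which holds stromal precursors back from the fat cell fate in mice, had levels of 6.01 and 4.88 in MSC I, against 8.45 and 8.44 in MSC IV (difference -2.9997 ± 0.42, adjusted p = 0.00275). Klf2, a repressor of Pparg, had 6.88 and 6.27 in MSC I, against 8.75 and 8.95 in MSC IV (difference -2.28 ± 0.27, adjusted p = 0.00142). Foxo1, the insulin-regulated factor, had 7.46 and 7.50 in MSC I, against 9.06 and 10.13 in MSC IV (difference -2.12 ± 0.34, adjusted p = 0.00479). Ddit3 had the largest difference of the lower members, -3.26, but its call was not stable. It was lost with either form of replicate block and on leaving out any array of MSC I, MSC III or MSC IV. The difference was -2.69 without MSC I replicate 1. Nr2f2, the orphan receptor COUP-TFII, was higher in MSC I, with 9.50 and 9.36 in MSC I, against 7.70 and 7.06 in MSC IV (difference 2.05 ± 0.27, adjusted p = 0.00221). Dlk1, the preadipocyte factor, lay at 7.27 and 6.46 in MSC I, against 6.21 and 5.78 in MSC IV and was not called.

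Bone genes were lower in MSC I in most called cases, but not in all. Of 46 measured genes in the lists of osteoblast transcription factors, bone matrix and mineralisation, 17 were lower, 7 higher and 22 not called, with a median of -0.94 log2. The shares over all genes were 4.27% lower and 6.54% higher. Of the 17 transcription factors 6 were lower and 4 higher (median -0.64). Sp7, osterix, required for osteoblasts to form, had levels of 6.39 and 4.82 in MSC I, against 12.80 and 11.38 in MSC IV (difference -6.48 ± 0.75, adjusted p = 0.00133). The homeobox factor Dlx5, an activator of osteoblast genes, had 6.47 and 5.32 in MSC I, against 11.78 and 11.06 in MSC IV (difference -5.53 ± 0.54, adjusted p = 0.000668). Mef2c, a MADS factor of bone and muscle, had 7.86 and 7.03 in MSC I, against 12.35 and 11.93 in MSC IV (difference -4.70 ± 0.38, adjusted p = 0.000289). The MSC I arrays were below 8 log2 for these 3 genes and the MSC IV arrays above 11. Dlx6, the neighbour of Dlx5, differed by -3.89 ± 0.33, and Runx3, a Runx factor, by -1.83 ± 0.12. Dlx3 was called at -2.11 ± 0.46, but not on leaving out MSC I replicate 2 (adjusted p of 0.08).

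In the same list 4 factors were higher in MSC I. Twist2, which restrains Runx2 in mouse osteoblasts, had levels of 10.14 and 9.92 in MSC I, against 5.77 and 5.30 in MSC IV (difference 4.50 ± 0.61, adjusted p = 0.00243). Lef1, a transcription factor of the Wnt pathway, had 8.98 and 8.44 in MSC I, against 5.01 and 5.61 in MSC IV (difference 3.40 ± 0.28, adjusted p = 0.000333). Runx1, the Runx factor best known in blood formation, had 11.00 and 10.74 in MSC I, against 9.82 and 9.25 in MSC IV (difference 1.34 ± 0.25, adjusted p = 0.00807). The AP-1 subunit Fosl1 had 10.05 and 10.68 in MSC I, against 9.05 and 8.56 in MSC IV (difference 1.56 ± 0.24, adjusted p = 0.00416). The MSC I arrays lay above the MSC IV arrays for each of these genes.

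Of 17 bone matrix genes 6 were lower and 1 higher, with a median of -1.25. Ibsp, bone sialoprotein, which nucleates mineral, had the largest difference of all genes, with levels of 6.27 and 3.97 in MSC I, against 14.45 and 12.64 in MSC IV (difference -8.43 ± 1.22, adjusted p = 0.00315). The arrays of each preparation were about 2 log2 apart, and the preparations did not overlap. Postn, periostin, a matrix protein of the bone surface, had 7.30 and 6.40 in MSC I, against 12.50 and 12.13 in MSC IV (difference -5.47 ± 0.38, adjusted p = 0.000149). Ifitm5, a membrane protein of mineralising osteoblasts, had 6.70 and 6.13 in MSC I, against 10.02 and 11.85 in MSC IV (difference -4.52 ± 0.57, adjusted p = 0.00183). The collagen chain Col11a1 differed by -3.43 ± 0.32, the type I chain Col1a2 by -1.77 ± 0.20 and tenascin N, Tnn, by -1.59 ± 0.28. Col1a1, the other type I chain, lay at 11.62 and 10.71 in MSC I, against 11.90 and 12.14 in MSC IV and was not called (difference -0.85 ± 0.30, adjusted p = 0.0803), except as lower without MSC I replicate 1. Decorin, Dcn, a proteoglycan of many connective tissues, was higher in MSC I, at 10.71 and 9.76 in MSC I, against 6.86 and 7.21 in MSC IV (difference 3.20 ± 0.42, adjusted p = 0.00221). Sparc, osteonectin, was near the top of the range in both preparations, at 13.51 and 13.23 in MSC I, against 13.57 and 13.54 in MSC IV.

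The promoter of Ibsp is shown from RefSeq (build GRCm38.p6) as the gene with the largest difference. Its 250 bases before the start site lie at chr5:104299037-104299286 on the + strand, and capitals mark the TATA box letters, found on the opposite strand 28 to 23 bases before the start:
Ibsp: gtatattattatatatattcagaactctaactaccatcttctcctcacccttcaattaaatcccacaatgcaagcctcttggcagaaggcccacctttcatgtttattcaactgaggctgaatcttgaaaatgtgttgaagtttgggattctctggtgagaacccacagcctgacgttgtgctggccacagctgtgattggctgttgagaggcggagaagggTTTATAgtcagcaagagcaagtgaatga
The RUNX letters TGTGGT were not in this window, and on either strand they occurred in 16.4% of all promoters, 14.7% of those of the higher genes and 14.5% of those of the lower genes. The homeodomain letters TAATTA were in 5.06% of all promoters.

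Mineralisation genes had the most negative median of these lists, -2.75, with 5 of 12 lower and 2 higher. Slc13a5, the citrate transporter of osteoblasts, had levels of 5.99 and 5.24 in MSC I, against 13.57 and 13.00 in MSC IV (difference -7.67 ± 0.47, adjusted p = 9.07e-05), a ratio of 203 between the preparations. Panx3, a channel protein of osteoblasts and growth plate cartilage, had 5.36 and 4.69 in MSC I, against 11.58 and 12.13 in MSC IV (difference -6.83 ± 0.27, adjusted p = 1.69e-05). Phospho1, the phosphatase that starts mineral in matrix vesicles, had 7.94 and 6.30 in MSC I, against 11.82 and 12.03 in MSC IV (difference -4.80 ± 0.51, adjusted p = 0.000941). The receptor of parathyroid hormone, Pth1r, had 5.97 and 5.49 in MSC I, against 10.26 and 10.62 in MSC IV (difference -4.71 ± 0.51, adjusted p = 0.000987), and the sphingomyelinase Smpd3 differed by -4.19 ± 0.34. Alpl, the alkaline phosphatase used to stain osteoblasts, had 10.54 and 9.45 in MSC I, against 13.82 and 12.25 in MSC IV, with no overlap between the preparations but arrays of each preparation over 1 log2 apart, and it missed the threshold (difference -3.04 ± 1.00, adjusted p = 0.0659). It was called lower without either MSC V array, under each of the 3 filters on low values and in eBayes with trend and robust settings. Phex, a peptidase that controls phosphate, lay at 6.09 and 4.33 in MSC I, against 6.68 and 8.69 in MSC IV and missed the threshold too (difference -2.47 ± 0.81, adjusted p = 0.0654). It was called lower without MSC IV replicate 1, with the filter of at least 2 arrays above the table median, and with trend and robust settings. The higher genes were inhibitors of mineral. Mgp, matrix Gla protein, which keeps soft tissue from calcifying, had 11.58 and 10.62 in MSC I, against 7.92 and 7.76 in MSC IV (difference 3.25 ± 0.42, adjusted p = 0.00209). Ank, which exports pyrophosphate, was called at 1.16 ± 0.32, but not on leaving out MSC I replicate 1 (adjusted p of 0.166), MSC IV replicate 1 (adjusted p of 0.074), MSC IV replicate 2 (adjusted p of 0.174), MSC V replicate 1 (adjusted p of 0.0557) or MSC V replicate 2 (adjusted p of 0.0557), and the count of higher genes was 1 without either MSC IV array.

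The lists of osteocyte genes and of osteoclast control held 9 measured genes each, so that 1 call is 11.1% of a list. Among all genes 6.54% were higher and 4.27% lower. Of 9 osteocyte genes 1 was lower, the Wnt antagonist Dkk1, with 5.82 and 5.12 in MSC I, against 9.54 and 11.75 in MSC IV (difference -5.17 ± 0.67, adjusted p = 0.00212), and without MSC IV replicate 1 the count was 2. Sost, sclerostin, the marker of mature osteocytes, lay at 5.26 and 5.13 in MSC I, against 5.21 and 5.42 in MSC IV and the phosphate hormone Fgf23 at 5.85 and 6.03 in MSC I, against 5.95 and 5.92 in MSC IV. Of 9 genes that control osteoclasts, the bone-resorbing cells, 2 were higher and 0 lower. Tnfrsf11b, osteoprotegerin, the decoy receptor that blocks osteoclast formation, had 11.41 and 12.24 in MSC I, against 9.98 and 9.62 in MSC IV (difference 2.03 ± 0.30, adjusted p = 0.00329). Its target RANKL, encoded by Tnfsf11, lay at 6.30 and 6.10 in MSC I, against 6.15 and 6.32 in MSC IV, below the table median on all 4 arrays. Il6, the other higher gene, is described with the cytokines.

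Cartilage and tendon genes held calls in either direction. Of 16 cartilage genes 2 were higher and 2 lower (12.5% each, beside 6.54% and 4.27% of all genes), and 10 were below the table median in both preparations. The structural genes Col2a1 (6.63 and 6.12 in MSC I, against 6.62 and 6.54 in MSC IV) and Acan (4.93 and 4.98 in MSC I, against 4.97 and 5.06 in MSC IV) were among the genes not called. Sox5, a partner of the cartilage factor Sox9, had 9.60 and 8.79 in MSC I, against 5.84 and 5.30 in MSC IV (difference 3.62 ± 0.51, adjusted p = 0.00282), and Col10a1, the collagen of hypertrophic cartilage, 8.64 and 8.83 in MSC I, against 6.47 and 5.75 in MSC IV (difference 2.62 ± 0.37, adjusted p = 0.00275). The related factor Sox6 was lower in MSC I, at -1.24 ± 0.15, as was the ligand Indian hedgehog, Ihh, at -2.19 ± 0.12. Of 9 tendon genes 3 were higher and 3 lower. Scx, scleraxis, the tendon transcription factor, had 5.59 and 5.67 in MSC I, against 10.23 and 10.58 in MSC IV (difference -4.78 ± 0.46, adjusted p = 0.000612). The collagen-binding proteoglycan Fmod had 5.93 and 4.79 in MSC I, against 10.08 and 9.36 in MSC IV (difference -4.35 ± 0.64, adjusted p = 0.0033), and tenascin C, Tnc, differed by -2.22 ± 0.39. Egr1, an immediate early factor, was higher at 2.07 ± 0.37. Without MSC I replicate 1 the number of higher tendon genes was 1.

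Smooth muscle genes were higher in MSC I in 8 of 14 cases and lower in 0, with a median of 1.18. Tagln, the actin-binding protein SM22, had levels of 11.99 and 11.93 in MSC I, against 9.003 and 9.26 in MSC IV (difference 2.83 ± 0.15, adjusted p = 5.82e-05). The actin Actg2 had 12.58 and 12.69 in MSC I, against 8.88 and 9.32 in MSC IV (difference 3.54 ± 0.20, adjusted p = 6.69e-05). Itga8, the integrin alpha 8 chain, had 9.75 and 9.68 in MSC I, against 6.21 and 5.07 in MSC IV (difference 4.08 ± 0.40, adjusted p = 0.000652). Myl9, a myosin light chain, differed by 1.77 ± 0.11 and tropomyosin Tpm2 by 1.20 ± 0.20. Acta2, smooth muscle actin, was high on all 4 arrays, at 13.69 and 13.72 in MSC I, against 13.07 and 12.95 in MSC IV, and was not called. Markers of full smooth muscle differentiation were low: Myh11, the smooth muscle myosin, lay at 5.64 and 5.53 in MSC I, against 5.26 and 5.42 in MSC IV. Myocd, the master factor of smooth muscle, lay at 6.38 and 5.92 in MSC I, against 7.33 and 7.12 in MSC IV and was not called (difference -1.08 ± 0.44, adjusted p = 0.124); it was called lower without either MSC II array and in the 4 arrays alone.

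Factors by which stromal cells support blood stem cells were higher in MSC I in 9 of 14 cases and lower in 0, with a median of 2.80. Kitl, stem cell factor, had levels of 12.14 and 11.13 in MSC I, against 7.40 and 6.17 in MSC IV (difference 4.85 ± 0.66, adjusted p = 0.00249). Cxcl12, the chemokine that retains blood stem cells in the marrow, had 12.93 and 12.33 in MSC I, against 9.51 and 9.25 in MSC IV (difference 3.25 ± 0.31, adjusted p = 0.000625). Angpt1, a Tie2 ligand, had 12.05 and 10.47 in MSC I, against 6.05 and 5.20 in MSC IV (difference 5.64 ± 0.73, adjusted p = 0.0021). Cxcl12 was thus above 9 log2 in MSC IV as well. Kitl lay on either side of the table median there, and Angpt1 below it on both arrays. Ebf3, a transcription factor of niche stromal cells in mice, had 9.92 and 9.70 in MSC I, against 5.21 and 5.26 in MSC IV (difference 4.57 ± 0.26, adjusted p = 6.69e-05), and Foxc1, another, differed by 2.05 ± 0.25. The Notch ligand Jag1 had 10.57 and 11.41 in MSC I, against 7.36 and 6.81 in MSC IV (difference 3.91 ± 0.44, adjusted p = 0.00121) and the growth factor Igf1 10.49 and 9.96 in MSC I, against 7.68 and 7.17 in MSC IV (difference 2.80 ± 0.36, adjusted p = 0.00197). Lepr, the leptin receptor that marks niche stromal cells in adult marrow, lay the other way, at 5.51 and 5.48 in MSC I, against 7.48 and 7.23 in MSC IV, and missed the threshold (difference -1.86 ± 0.57, adjusted p = 0.0529). It was called lower without either MSC III array, without either MSC V array, with at least 2 arrays above the table median, with median-centred arrays, with trend and robust settings and in the 4 arrays alone. Csf1, the macrophage growth factor, lay at 11.08 and 11.77 in MSC I, against 12.03 and 11.71 in MSC IV and was not called.

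Matrix genes outside bone, where called, were mostly higher in MSC I. Of 16 collagen chains 7 were higher and 1 lower (median 1.37), and of 19 matrix glycoproteins 8 were higher and 0 lower (median 0.48). The basement membrane chains Col4a1 (3.09 ± 0.20) and Col4a2 (2.94 ± 0.19) were higher. So were the microfibril chains Col6a2 (3.23 ± 0.54) and Col6a3, with levels of 11.60 and 9.85 in MSC I, against 6.54 and 6.52 in MSC IV (difference 4.19 ± 0.75, adjusted p = 0.0073). Col8a1, a chain of short network collagen, differed by 4.03 ± 0.38. Nid1, nidogen, which links basement membrane networks, had 12.65 and 12.73 in MSC I, against 6.32 and 5.96 in MSC IV (difference 6.55 ± 0.24, adjusted p = 1.28e-05). The large proteoglycan versican, Vcan, had 12.75 and 12.63 in MSC I, against 7.37 and 7.03 in MSC IV (difference 5.48 ± 0.26, adjusted p = 3.15e-05). Fbln1 (3.48 ± 0.33) and Thbs2 (3.48 ± 0.15) were higher, while fibronectin, Fn1, lay near the top of the range at 13.42 and 13.45 in MSC I, against 13.61 and 13.34 in MSC IV and was not called. The lower chain was Col5a2 (-1.05 ± 0.14), a partner of type I collagen, whose call was lost on leaving out MSC I replicate 2 (difference -0.94) or MSC IV replicate 2 (difference -0.95). Without MSC I replicate 1 or MSC IV replicate 1 the number of lower chains was 2.

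Of 16 matrix proteases and inhibitors 3 were higher and 2 lower (18.8% and 12.5%, beside 6.54% and 4.27% of all genes). Mmp13, the collagenase of bone and cartilage remodelling, had levels of 11.24 and 10.02 in MSC I, against 6.21 and 5.38 in MSC IV (difference 4.83 ± 0.63, adjusted p = 0.00212). The aggrecan-cutting proteases Adamts1 (2.97 ± 0.28) and Adamts4 (1.83 ± 0.24) were higher too. Timp3, a matrix-bound inhibitor of these proteases, was lower at 8.65 and 10.04 in MSC I, against 12.52 and 12.07 in MSC IV (difference -2.95 ± 0.44, adjusted p = 0.00363). Mmp2 (11.83 and 11.13 in MSC I, against 11.72 and 11.87 in MSC IV) and Timp1 (12.48 and 12.07 in MSC I, against 11.79 and 12.52 in MSC IV) were high on all 4 arrays and not called. Among 10 cadherins, the cell-cell adhesion receptors, N-cadherin, Cdh2, had 6.88 and 6.67 in MSC I, against 11.57 and 12.17 in MSC IV (difference -5.10 ± 0.24, adjusted p = 3.26e-05) and P-cadherin, Cdh3, had 5.37 and 5.87 in MSC I, against 9.56 and 9.004 in MSC IV (difference -3.66 ± 0.21, adjusted p = 7.08e-05), which were the 2 lower members. Cdh11, the cadherin of osteoblasts and fibroblasts, was called higher at 1.55 ± 0.38, but not on leaving out MSC I replicate 1 (adjusted p of 0.124) or MSC IV replicate 1 (adjusted p of 0.116). The number of higher cadherins was 2 without MSC I replicate 2.

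Signalling pathways were split between their ligands, receptors and antagonists. Of 19 Wnt ligands 0 were higher and 3 lower, and 16 were below the table median in both preparations. Wnt5a, a ligand of the beta-catenin-independent branch, had levels of 7.36 and 6.79 in MSC I, against 10.42 and 10.04 in MSC IV (difference -3.15 ± 0.27, adjusted p = 0.000413). Of 19 Wnt receptors 5 were higher and 2 lower, Fzd4 with 9.71 and 9.27 in MSC I, against 5.12 and 5.30 in MSC IV (difference 4.28 ± 0.19, adjusted p = 2.13e-05) and Fzd1 with 2.81 ± 0.45 among the higher and Fzd6 with -2.34 ± 0.31 and Lrp4 with -1.70 ± 0.28 the lower ones. Of 18 antagonists and feedback targets 6 were higher and 2 lower. Sfrp1, a secreted decoy for Wnt ligands, had 11.55 and 11.21 in MSC I, against 5.73 and 5.27 in MSC IV (difference 5.88 ± 0.40, adjusted p = 0.000143). Dkk2 (2.90 ± 0.43) and Dkk3 (2.12 ± 0.32) were higher, against Dkk1, which was lower as given above. Axin2, a common target of beta-catenin, lay at 6.44 and 6.21 in MSC I, against 6.52 and 6.20 in MSC IV and was not called (difference -0.0373 ± 0.20, adjusted p = 0.924).

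The BMP antagonists Grem1, at 10.70 and 11.94 in MSC I, against 7.02 and 6.77 in MSC IV (difference 4.42 ± 0.47, adjusted p = 0.000958), and Fst, follistatin, at 12.18 and 11.27 in MSC I, against 7.22 and 6.83 in MSC IV (difference 4.70 ± 0.69, adjusted p = 0.00336), were higher in MSC I. Among the targets of BMP signals, Id3 was lower, with 10.17 and 9.70 in MSC I, against 11.68 and 11.66 in MSC IV (difference -1.73 ± 0.19, adjusted p = 0.00108), and Id4 higher, with 9.07 and 9.75 in MSC I, against 5.52 and 5.29 in MSC IV (difference 4.01 ± 0.22, adjusted p = 5.41e-05). The signal transducer Smad9 differed by -2.76 ± 0.25. In all, 3 of 18 receptors, antagonists and targets were higher and 4 lower, 2 of them without MSC I replicate 2. Of 10 BMP ligands 3 were higher and 1 lower, Bmp5 being higher at 2.55 ± 0.23 and Bmp1, a procollagen protease by function, at 1.33 ± 0.22. The lower ligand was Bmp4 (-1.36 ± 0.28), whose call was lost on leaving out MSC I replicate 2 (adjusted p of 0.0632) or MSC IV replicate 1 (adjusted p of 0.065).

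In the Hedgehog pathway 2 of 10 genes were higher and 1 lower. Ptch1, the Hedgehog receptor that is itself induced by the signal, had levels of 9.83 and 9.61 in MSC I, against 11.54 and 11.49 in MSC IV (difference -1.79 ± 0.27, adjusted p = 0.00345), and the transcription factor Gli2 was higher at 1.46 ± 0.0854. Without MSC I replicate 1 or MSC IV replicate 2 the higher count was 1. In the Notch pathway 5 of 15 genes were higher and 1 lower. The receptor Notch1 (2.01 ± 0.35) and the target Hes1 (2.71 ± 0.46) were higher, and Hey1, another target, was lower at 5.36 and 5.25 in MSC I, against 8.62 and 8.84 in MSC IV (difference -3.42 ± 0.11, adjusted p = 6.24e-06). In the IGF system 3 of 14 genes were higher and 0 lower. Igf2, an imprinted growth factor, had 11.83 and 12.13 in MSC I, against 6.25 and 6.91 in MSC IV (difference 5.40 ± 0.42, adjusted p = 0.000251), and the binding protein Igfbp7 differed by 1.73 ± 0.13. The receptors Igf1r (10.50 and 10.67 in MSC I, against 10.45 and 10.09 in MSC IV) and Insr (9.83 and 9.79 in MSC I, against 10.44 and 10.32 in MSC IV) were not called.

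Interferon response genes formed the group with the second highest share of calls among the lists. The members of the lists were chosen with earlier results of these data known, which can favour a high share. Interferons are known to induce such genes through the interferon-stimulated response element in their promoters. Of 22 measured genes 19 were higher and 0 lower, with a median of 2.98 log2, and the count was 19 with each of the 10 arrays left out in turn. Usp18, the largest, is given above. Irf7, which amplifies the response, had levels of 10.81 and 10.47 in MSC I, against 4.94 and 5.05 in MSC IV (difference 5.65 ± 0.12, adjusted p = 1.27e-06). The RNA-binding antiviral proteins Ifit3 and Ifit1 had 12.87 and 12.25 in MSC I, against 6.12 and 6.38 in MSC IV (difference 6.31 ± 0.28, adjusted p = 2.32e-05) and 11.14 and 11.53 in MSC I, against 4.90 and 5.59 in MSC IV (difference 6.09 ± 0.33, adjusted p = 5.98e-05). Oasl2, of the oligoadenylate synthetase family, had 11.74 and 11.71 in MSC I, against 5.48 and 5.85 in MSC IV (difference 6.06 ± 0.21, adjusted p = 9.36e-06). For these genes every MSC I array was above 10 log2 and every MSC IV array below the table median. The RNA sensors Ifih1, which encodes MDA5 (4.72 ± 0.20), and Ddx58, which encodes RIG-I (3.62 ± 0.13), were higher, as were the transcription factors Irf9 (2.63 ± 0.15) and Stat2 (2.14 ± 0.17). Bst2, tetherin, differed by 3.29 ± 0.41 and viperin, Rsad2, by 3.76 ± 0.0851. The 3 members not called were Mx1 (5.63 and 5.59 in MSC I, against 5.34 and 5.39 in MSC IV), Oas2 (5.54 and 5.78 in MSC I, against 5.23 and 5.05 in MSC IV) and Oas3 (5.29 and 5.29 in MSC I, against 5.15 and 5.26 in MSC IV), all below the table median.

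Promoters of 4 of these genes are shown from RefSeq (build GRCm38.p6), each as the 250 bases before the start site. All 4 hold the known element, which not every gene of the list does, so they do not stand for the list. Capitals mark GAAA, any 2 bases, GAAA on either strand, the core of the interferon-stimulated response element. The windows are chr19:34640639-34640888 (+) for Ifit1, chr19:34583279-34583528 (+) for Ifit3, chr12:26456453-26456702 (-) for Rsad2 and chr8:71537473-71537722 (-) for Bst2:
Ifit1: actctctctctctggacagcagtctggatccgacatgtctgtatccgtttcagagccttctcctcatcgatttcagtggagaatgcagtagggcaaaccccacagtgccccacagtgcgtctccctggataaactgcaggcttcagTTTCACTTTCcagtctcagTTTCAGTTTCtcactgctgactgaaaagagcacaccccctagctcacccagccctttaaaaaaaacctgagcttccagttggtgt
Ifit3: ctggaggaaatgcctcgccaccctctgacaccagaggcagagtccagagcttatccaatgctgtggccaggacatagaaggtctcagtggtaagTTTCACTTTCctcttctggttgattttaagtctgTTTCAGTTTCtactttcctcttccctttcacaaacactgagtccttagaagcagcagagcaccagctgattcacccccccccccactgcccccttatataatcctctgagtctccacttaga
Rsad2: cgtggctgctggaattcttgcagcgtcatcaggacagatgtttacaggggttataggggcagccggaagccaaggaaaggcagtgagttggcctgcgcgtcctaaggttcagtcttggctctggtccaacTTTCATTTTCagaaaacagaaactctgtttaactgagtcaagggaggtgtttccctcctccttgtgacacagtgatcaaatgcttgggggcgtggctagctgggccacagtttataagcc
Bst2: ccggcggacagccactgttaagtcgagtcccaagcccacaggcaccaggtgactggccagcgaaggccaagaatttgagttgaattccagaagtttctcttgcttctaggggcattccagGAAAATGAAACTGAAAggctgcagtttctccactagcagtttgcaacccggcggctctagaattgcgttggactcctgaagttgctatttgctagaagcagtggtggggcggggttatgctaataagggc
Ifit1 and Ifit3 each held the element at 2 places on the opposite strand, Rsad2 at 1 place and Bst2 at 2 overlapping places. In the 300-base window around the start the letters were found in 10 of the 17 interferon list genes with an entry (58.8%), and in 3.89% of all 15614. Among genes higher in MSC I the share was 74 of 1018 (7.27%) and among lower genes 18 of 654 (2.75%). These shares describe the letters and no binding was measured.

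Class I antigen presentation, which shows peptides to T cells, was called in 8 of 9 genes, all higher, with a median of 1.58, and the count was 8 with each array left out in turn. The class I gene H2-Q4 had levels of 10.87 and 11.03 in MSC I, against 5.16 and 5.44 in MSC IV (difference 5.65 ± 0.25, adjusted p = 2.3e-05). Class I genes are near copies of each other, and probes for one may read another. Tap1, a subunit of the peptide transporter, had 9.57 and 9.38 in MSC I, against 5.33 and 5.60 in MSC IV (difference 4.01 ± 0.19, adjusted p = 3.44e-05), and Psmb8, a subunit of the immunoproteasome, 9.08 and 8.50 in MSC I, against 5.58 and 5.74 in MSC IV (difference 3.13 ± 0.22, adjusted p = 0.000158). B2m, the light chain of class I molecules, lay at 14.04 and 14.01 in MSC I, against 13.49 and 13.35 in MSC IV and differed by less than 1 log2 (difference 0.61 ± 0.0768, adjusted p = 0.00194).

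Inflammatory cytokines and chemokines were higher in 8 of 15 cases and lower in 0 (median 1.40), also with each array left out in turn. The interferon-induced chemokine Cxcl10 had levels of 12.02 and 12.68 in MSC I, against 5.51 and 6.23 in MSC IV (difference 6.48 ± 0.52, adjusted p = 0.000302). The monocyte chemokines Ccl2 and Ccl7 had 12.13 and 13.00 in MSC I, against 6.496 and 7.13 in MSC IV (difference 5.75 ± 0.76, adjusted p = 0.00223) and 11.72 and 12.54 in MSC I, against 6.86 and 6.67 in MSC IV (difference 5.36 ± 0.56, adjusted p = 0.000896). Cxcl14 differed by 5.16 ± 0.19, Ccl5 by 4.43 ± 0.38 and the cytokine Il6 by 3.61 ± 0.53. Tnf (5.36 and 5.33 in MSC I, against 5.48 and 5.28 in MSC IV) and Il1b (5.19 and 5.12 in MSC I, against 5.21 and 5.29 in MSC IV), products of activated macrophages, were below the table median on all 4 arrays. Of 11 complement genes 1 was higher (9.09%, near the 6.54% of all genes). It was Serping1, the inhibitor of the C1 protease, with 12.90 and 12.39 in MSC I, against 5.94 and 5.72 in MSC IV (difference 6.81 ± 0.33, adjusted p = 3.43e-05). The C1 protease gene C1ra missed the threshold (difference 1.15 ± 0.35, adjusted p = 0.0506). It was called higher without either MSC V array, under the 3 filters on low values, with median-centred arrays and with trend and robust settings, and the list's count was then 3. It was also called after further quantile normalisation, where the count was 2.

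**Figure D4:**
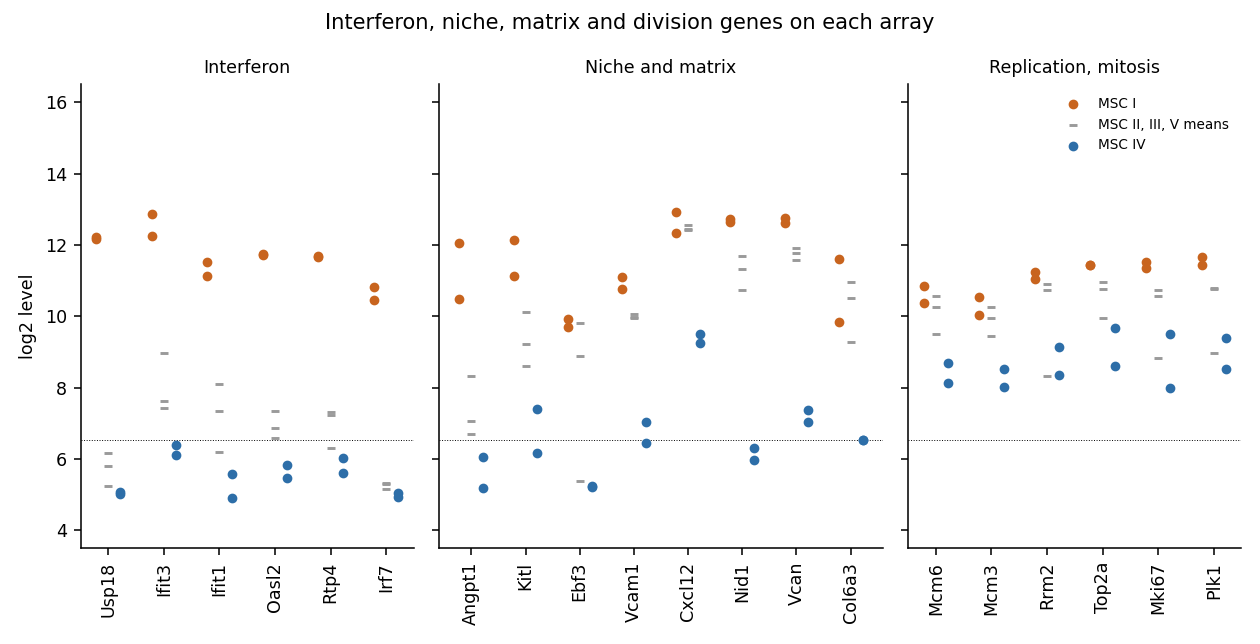
Log2 level of 6 interferon genes (left), 8 niche and matrix genes (middle) and 6 replication and mitosis genes (right) on each array of MSC I (orange) and MSC IV (blue), with the means of MSC II, III and V as grey dashes and the table median of 6.55 as a dotted line. The genes were picked from the lists and do not stand for the lists as a whole. The lists also hold members that were not called, and the collagen list holds a lower one, Col5a2. The calls of Rrm2, Top2a, Mki67 and Plk1 were lost on leaving out either MSC I array. The arrays of MSC I lie above those of MSC IV for all 20 genes shown, and the gaps are narrower for the replication and mitosis genes.

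Genes of cell division were called in 26 of 39 cases, all higher in MSC I, but many calls were lost when any 1 of several arrays was left out. Of 20 genes of DNA replication 12 were higher and 0 lower (median 1.21), and of 19 genes of mitosis 14 were higher and 0 lower (median 2.16). All 19 mitosis genes had a positive difference, between 1.28 and 2.69. Mcm6, a subunit of the replicative helicase, had levels of 10.37 and 10.86 in MSC I, against 8.69 and 8.13 in MSC IV (difference 2.20 ± 0.29, adjusted p = 0.00223). Ccne1, cyclin E1, which starts the S phase, had 10.40 and 10.84 in MSC I, against 8.54 and 8.68 in MSC IV (difference 2.01 ± 0.36, adjusted p = 0.00763). Mki67, the proliferation antigen Ki-67, had 11.51 and 11.35 in MSC I, against 9.51 and 7.98 in MSC IV (difference 2.69 ± 0.71, adjusted p = 0.0317). The MSC IV arrays lay over 1 log2 apart for Mki67, whose call was lost on leaving out MSC I replicate 1 (adjusted p of 0.123), MSC I replicate 2 (adjusted p of 0.0961) or MSC IV replicate 2 (adjusted p of 0.164). The number of higher mitosis genes was 0 without MSC I replicate 1, MSC I replicate 2 or MSC IV replicate 2, and 9 without MSC IV replicate 1. At an unadjusted p under 0.05 in limma these 3 fits with 0 calls had 13, 14 and 7 higher mitosis genes, in the same order. For DNA replication the count was 5 on leaving out MSC I replicate 1, 4 on leaving out MSC I replicate 2 and 2 on leaving out MSC IV replicate 2. Of 13 cell cycle inhibitors 2 were higher and 1 lower (median -0.55). The inhibitor Cdkn2c, p18, had 10.82 and 10.14 in MSC I, against 7.64 and 7.11 in MSC IV (difference 3.11 ± 0.43, adjusted p = 0.00257), and Cdkn2a, the locus of p16 and p19ARF, lay at 9.75 and 9.32 in MSC I, against 10.27 and 10.05 in MSC IV, below the minimum of 1 log2 (difference -0.63 ± 0.18, adjusted p = 0.0421). The other higher member, Cdkn1c (1.09 ± 0.20), lost its call on leaving out MSC IV replicate 1 (difference 0.79), and the lower count was 0 without either array of MSC I, MSC III or MSC IV.

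Hox genes, which keep a record of a cell's position along the body axis, were called in 10 of 37 cases, 7 higher and 3 lower (median 0.0145). These shares were 18.9% and 8.11%, beside 6.54% and 4.27% of all genes. Hoxc12 and Hoxc13 had the largest differences. Hoxc12 had levels of 11.13 and 11.27 in MSC I, against 6.39 and 6.45 in MSC IV (difference 4.78 ± 0.34, adjusted p = 0.00017) and Hoxc13 10.16 and 9.86 in MSC I, against 6.58 and 6.60 in MSC IV (difference 3.42 ± 0.20, adjusted p = 7.81e-05). Hoxc8 differed by 1.88 ± 0.31 and Hoxa3 by 1.58 ± 0.28. The lower genes included Hoxd8, at 4.92 and 5.10 in MSC I, against 6.85 and 6.69 in MSC IV (difference -1.76 ± 0.13, adjusted p = 0.000181), and Hoxd9, at -1.24 ± 0.15. Without MSC I replicate 1 or MSC IV replicate 2 the higher count was 4. Of 20 positional factors outside the Hox clusters 4 were higher and 2 lower. Tbx18, a T-box factor of perivascular cells, had 12.34 and 12.03 in MSC I, against 8.47 and 7.94 in MSC IV (difference 3.98 ± 0.39, adjusted p = 0.000681), and Pitx1, the hindlimb factor, 9.07 and 8.59 in MSC I, against 6.72 and 6.68 in MSC IV (difference 2.13 ± 0.19, adjusted p = 0.000432). The limb mesenchyme factor Prrx2 was lower, at 6.25 and 5.94 in MSC I, against 10.76 and 10.01 in MSC IV (difference -4.29 ± 0.28, adjusted p = 0.000116), while its relative Prrx1 lay at 12.63 and 12.47 in MSC I, against 12.11 and 11.95 in MSC IV and was not called.

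Of 15 imprinted genes, which are expressed from 1 parental allele, 5 were higher and 1 lower (median 0.64). Peg10 had levels of 12.66 and 12.47 in MSC I, against 9.29 and 8.33 in MSC IV (difference 3.75 ± 0.38, adjusted p = 0.000777), and the growth-suppressing factor Plagl1 differed by 1.31 ± 0.16. Grb10, an inhibitor of insulin signalling, was lower, at 4.88 and 5.22 in MSC I, against 8.63 and 7.62 in MSC IV (difference -3.07 ± 0.38, adjusted p = 0.00168). Igf2 is given above. Without MSC I replicate 2 the lower count was 2. Xist, the RNA that coats the inactive X chromosome, had 12.17 and 12.52 in MSC I, against 9.62 and 9.71 in MSC IV (difference 2.68 ± 0.16, adjusted p = 7.63e-05). The Y-linked genes Uty, Kdm5d and Eif2s3y were all below the table median, Uty at 5.04 and 5.04 in MSC I, against 5.07 and 5.05 in MSC IV.

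Of 8 housekeeping genes limma called 0, with 1 positive and 3 negative at an unadjusted p under 0.05. The actin gene Actb lay at 13.94 and 13.99 in MSC I, against 13.87 and 13.80 in MSC IV and the cyclophilin gene Ppia at 13.29 and 13.30 in MSC I, against 13.36 and 13.32 in MSC IV. The purine salvage enzyme Hprt (difference -0.65 ± 0.11, adjusted p = 0.00543) and the TATA-binding protein Tbp (difference -0.56 ± 0.0785, adjusted p = 0.00284) passed in p but not in size.

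The position of MSC II, III and V between the preparations was described for the called genes, with the mean of these 3 preparations placed in the gap from MSC IV to MSC I. Of the 1303 higher genes the mean lay in the middle of the gap (between 25% and 75%) for 661, nearer MSC IV for 285, nearer MSC I for 160, beyond MSC IV for 124 and beyond MSC I for 73. For the 852 lower genes these counts were 492, 144, 111, 66 and 39. Because the genes were chosen for a gap between MSC I and MSC IV, a mean of the others inside that gap is favoured by the choice. The counts therefore do not show that MSC II, III and V are intermediate in general. Cd36 is an example of a gene apart in MSC I, with a mean of 5.02 log2 in the other 3 preparations, and Panx3 of one apart in MSC IV, with 5.27. Ibsp lay between, at 9.75, as did Pparg, at 11.22. For Nid1 the mean of these 3 preparations (11.26) was nearer MSC I, and for Postn (12.68) it lay beyond MSC IV. The MSC I arrays were both above or both below every one of the 8 others for 809 of the higher and 531 of the lower genes, and the MSC IV arrays for 673 and 471. These genes were called for a gap between MSC I and MSC IV, which favours such extremes. The share over all genes was not counted, so the counts do not set these preparations apart. Set against the mean of MSC II, III and V, MSC I had 715 genes higher (3.59%) and 500 lower (2.51%), and MSC IV had 285 higher (1.43%) and 603 lower (3.02%). Both comparisons share those 6 arrays.

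The median difference varied among the chromosomes. Over genes whose mean exceeded the table median, the median difference was above 0.2 log2 on chromosomes 1 (0.31), 2 (0.27), 7 (0.32), 9 (0.29) and X (0.25). It was below -0.2 on chromosomes 3 (-0.46), 4 (-0.38), 10 (-0.37), 12 (-0.36), 16 (-0.33), 5 (-0.29), 19 (-0.25) and 8 (-0.20), beside -0.0443 for all such genes. Against MSC II, III and V, the shift of chromosome 10 stood in MSC I (median -0.46, against -0.10 in MSC IV), and that of chromosome 2 as well (0.35 in MSC I, against 0.0463 in MSC IV). The X chromosome was at -0.0142 in MSC I and at -0.23 in MSC IV. On chromosomes 3 and 4 MSC I was lower than those preparations (-0.31 and -0.20) and MSC IV higher (0.16 and 0.16). On chromosome 3, 39 of 943 genes were called higher (4.14%) and 95 lower (10.07%). On chromosome 1, 121 of 1122 were higher (10.78%) and 38 lower (3.39%). The shares over all genes were 6.54% and 4.27%. Genes on a chromosome are not independent, so no p is given, and the cells' chromosome number was not tested.

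**Figure D5:**
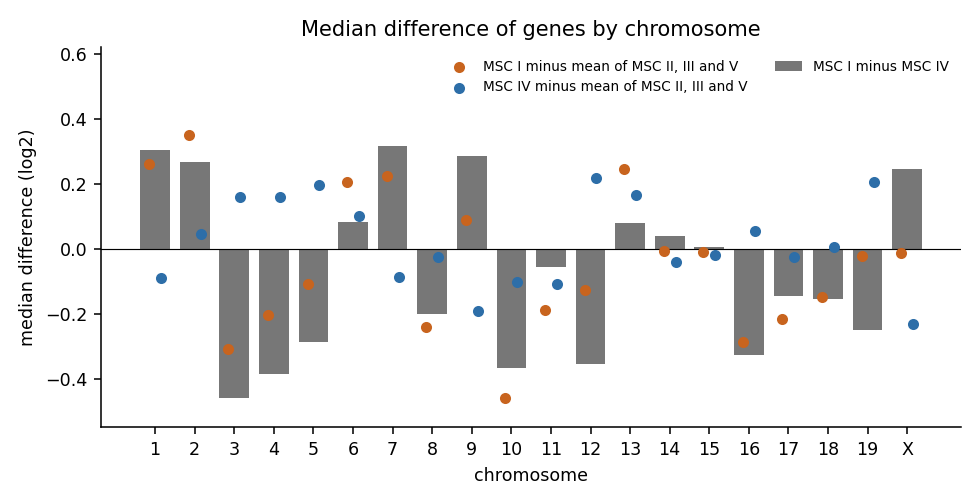
Median log2 difference of genes on each chromosome, over genes with a mean above the table median. Bars give MSC I minus MSC IV, and points give MSC I (orange) and MSC IV (blue) each minus the mean of MSC II, III and V; the lowest bar is chromosome 3 at -0.46 and the highest chromosome 7 at 0.32.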

How the data were processed

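The submitters' processing notes name RMA and Partek, whose versions were not given in the sources used here. The deposited values are log2 expression levels of 35399 probe sets on 10 arrays. RMA corrects background, normalises arrays by quantiles and summarises probes, which compresses differences between low values. Of the probe sets, 21789 had 1 gene symbol in the platform annotation, 1621 several and 11989 none. Of those with 1 symbol, 21698 matched the reference (GRCm38.p6), which gave current symbols. The probe sets with 1 symbol covered 19938 genes, and for the 999 with several probe sets the set of highest mean level stood for the gene.

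Means of the 5 preparations were fitted with lmFit and eBayes (limma 3.58.1, R 4.3.3) without a filter on low values, and the contrast was tested two-sided. The procedure was tested on simulated data. The 48 gene lists held 740 entries, 686 with a probe set of their own. Named genes were list members and the 15 largest differences each way, without predicted or clone names. The members and lists were chosen with earlier results of these data known. Deviations of same-numbered arrays correlated at -0.53 to 0.18 between preparations (-0.13 for MSC I with MSC IV). With 2 arrays a preparation the deviations mirror each other, so these values can neither show nor exclude a shared day or batch. Nothing in the labels says that replicate numbers mark one, and the main fit holds no replicate block. Promoter windows (300 bases, 250 before and 50 after the start) came from RefSeq. Alternatives were filters on low values, the mean of probe sets, 2 further scalings, another variance model, the 4 arrays alone, replicate blocks and each array left out.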

Additional observations from a re-analysis of the deposited data

How the results depend on the processing

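Among 254 called genes followed through the alternatives, 184 were called under every alternative that tested them, 70 lost the call in at least 1, and 0 changed direction. The number of arrays, 2 a preparation, and the compression of low levels limit these results. A lone array, where a preparation lost 1, was taken to vary like those of the other preparations. The count of all genes was 826 higher and 536 lower among genes with at least 2 arrays above the 75th percentile of the table, 9.22 log2. That filter left 3 higher adipocyte transcription factors, 6 lipid, 4 class I and 5 cytokine genes, and the filter on a mean above the table median 3 adipocyte transcription factors, 6 lipid genes, 3 adipokines and 5 cytokine genes. Fewer genes are tested under these filters by construction. The number of lower adipokines was 1 under the 3 low-value filters, centred arrays, further quantile normalisation and eBayes with trend and robust settings. The number of lower niche factors was 1 with at least 2 arrays above the median, centred arrays, trend and robust settings and the 4 arrays alone, which also gave 1 lower smooth muscle gene. The number of lower matrix glycoproteins was 1 under the 3 filters and centred arrays. With the replicate number as a block, 1190 genes were higher and 769 lower, with 5 higher mitosis genes and 1 higher mineralisation gene. With the numbers of MSC I crossed, a pairing chosen after seeing the data, these were 1262 and 834, with 6 mitosis genes. The cause of these moves was not tested. With 1 array left out at a time, 978 to 1316 genes were higher and 679 to 866 lower. The counts of higher members were 4 to 5 for adipocyte transcription factors, 9 to 15 for lipid uptake and storage, 5 for adipokines, 4 for osteoblast transcription factors, 1 for bone matrix, 1 to 2 for mineralisation, 19 for interferon response and 8 for class I antigen presentation. The counts of higher members were 8 for inflammatory cytokines and chemokines, 6 to 8 for smooth muscle genes, 8 to 9 for blood stem cell niche factors, 5 to 8 for collagen chains, 6 to 8 for matrix glycoproteins, 2 to 12 for DNA replication and 0 to 15 for mitosis. The counts of lower members were 0 for adipocyte transcription factors, 0 for lipid uptake and storage, 0 to 1 for adipokines, 6 to 7 for osteoblast transcription factors, 6 to 8 for bone matrix, 5 to 6 for mineralisation, 0 for interferon response and 0 for class I antigen presentation. The counts of lower members were 0 for inflammatory cytokines and chemokines, 0 to 1 for smooth muscle genes, 0 to 1 for blood stem cell niche factors, 0 to 2 for collagen chains, 0 to 1 for matrix glycoproteins, 0 for DNA replication and 0 for mitosis. Under the alternatives that keep all arrays, 42 of 660 counts in the other 33 lists moved by over 1.5 times or to or from 0, 33 of them under a low-value filter.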

Other observations

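A further 13610 probe sets carried no gene symbol or several in the annotation used and belong to no comparison above. Of these, 275 were higher and 408 lower in MSC I than in MSC IV in the same limma model fitted to all 35399 probe sets, by the same call rule.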
